A study of Mus musculus with 9 samples.

Results

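The subject here is 10 genes of the TNF superfamily of ligands and receptors, out of 24062 genes in the count table. They are the ligand genes Tnfsf11, Tnfsf18 and Tnf and the receptor genes Tnfrsf26, Tnfrsf11b, Tnfrsf1a, Tnfrsf1b, Tnfrsf10b, Tnfrsf12a and Fas. Their rows were taken by gene symbol. Tnfsf11, Tnfsf18 and Tnfrsf26 were selected on their lower counts with the Rela hairpins in these same data, so their values are a description and carry no test. All 10 passed the filter on low counts that left 15369 genes for testing. The RNA came from mouse embryonic fibroblasts, cells grown out of C57BL/6 embryos, which had been made senescent by gamma rays and were infected on day 10 with a lentivirus carrying a short hairpin RNA. The 3 groups, of 3 samples each, carried a scrambled hairpin (shScr), or either of 2 hairpins directed at Rela, named shRela-1 and shRela-2. Rela encodes the p65 subunit of NF-kB, and the knockdown addresses its role in senescent cells. All groups were irradiated, dividing cells and cells without a virus were not analysed here, and when the cells were harvested after infection is not stated in the labels.

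Ligands of the TNF superfamily are mostly trimeric proteins that sit on the cell surface or are cut free from it. Their receptors recruit TRAF adaptors, which lead to NF-kB and to stress kinases, and those with a death domain can also lead to caspase activation. Several genes of the family are themselves known NF-kB targets, Tnf among them, so the pathway feeds on its own output, and in senescent cells members of the family belong to the secreted factors and to the surface molecules seen by immune cells.

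Total counts ran from 49774667 to 67963506 per sample. Relative to the shScr mean, Rela was left at 16.0 ± 0.572% by shRela-1 and at 16.3 ± 0.902% by shRela-2 (SD, n = 3). The 10 fibroblast markers, such as collagen genes, were all expressed and summed to between 53800 and 59300 CPM in shScr, between 60400 and 63500 CPM in the shRela-1 samples, which all lay above the controls, and between 52700 and 55700 CPM in the shRela-2 samples. The 7 epithelial markers summed to between 11.0 and 14.1 CPM in shScr. The sum was higher in every knockdown sample (from 17.5 to 25.1 CPM for shRela-1, from 15.5 to 19.6 CPM for shRela-2). With shRela-1, Krt18 had more counts at each replicate number (1027, 549 and 492 against 399, 305 and 230 in shScr replicates 1 to 3). So had Sprr3 (305, 455 and 343 against 146, 283 and 220) and Krt8 (114, 67 and 58 against 75, 59 and 48). Krt5 had 101, 233 and 160 against 74, 274 and 172. The markers did not move together with shRela-2. There, Sprr3 had 523, 584 and 477 counts against 146, 283 and 220 in shScr replicates 1 to 3. Krt5 (71, 200 and 121 against 74, 274 and 172) and Krt8 (43, 42 and 35 against 75, 59 and 48) had fewer. Krt18 had 362, 247 and 232 against 399, 305 and 230. Epcam, Cdh1 and Krt14 had at most 18 counts in any sample. The part of such cells in the results was not tested. CPM is the count scaled to a fixed library size, with TMM factors. The shScr titles carry a dataset tag that the other titles lack, so a library batch that goes with it and the knockdown cannot be told apart. Nothing says that replicates are separate cultures, so the tests take in the spread among these samples and no more, which may be technical. Samples with the same replicate number deviated together. Values with the replicate number as a block are given where they change the call of a member, and for several of the other genes named below.

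The receptor genes other than Tnfrsf26 stood above all 3 ligand genes. Levels between genes are compared as RPKM, CPM per kilobase of exon. In shScr, Tnfrsf12a, the receptor Fn14 for TWEAK, stood highest at 128 ± 4.95 RPKM (SD, n = 3, here and below). Tnfrsf1a, which encodes the widely expressed TNF receptor with a death domain, followed at 71.7 ± 3.47 RPKM. Tnfrsf11b, which encodes osteoprotegerin, a secreted decoy, stood at 29.2 ± 0.714 RPKM, and Tnfrsf10b, the mouse TRAIL receptor, at 20.8 ± 0.165 RPKM. The ranges of neighbours in this order did not overlap down to this point, with the union of all annotated exons as the length. That union is 5451 bases for Tnfrsf10b, whose longest transcript has 3179, and 2818 bases by either measure for Tnfrsf11b. The order of this pair, like other orders and overlaps between genes, therefore depends on the length used.

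Lower in the order were Fas, the death receptor for Fas ligand, at 9.60 ± 1.38 RPKM and Tnfrsf1b, the TNF receptor without a death domain, at 7.74 ± 0.679 RPKM, and the ranges of this pair overlapped. Tnfrsf26, Tnfsf18 and Tnfsf11 stood together at 2.56 ± 0.272, 2.45 ± 1.38 and 2.43 ± 0.265 RPKM, with overlapping ranges. Tnf was lowest at 0.551 ± 0.238 RPKM, below every shScr sample of the genes before it. The plot of levels by sample shows each gene on its own axis.

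**Figure D1:**
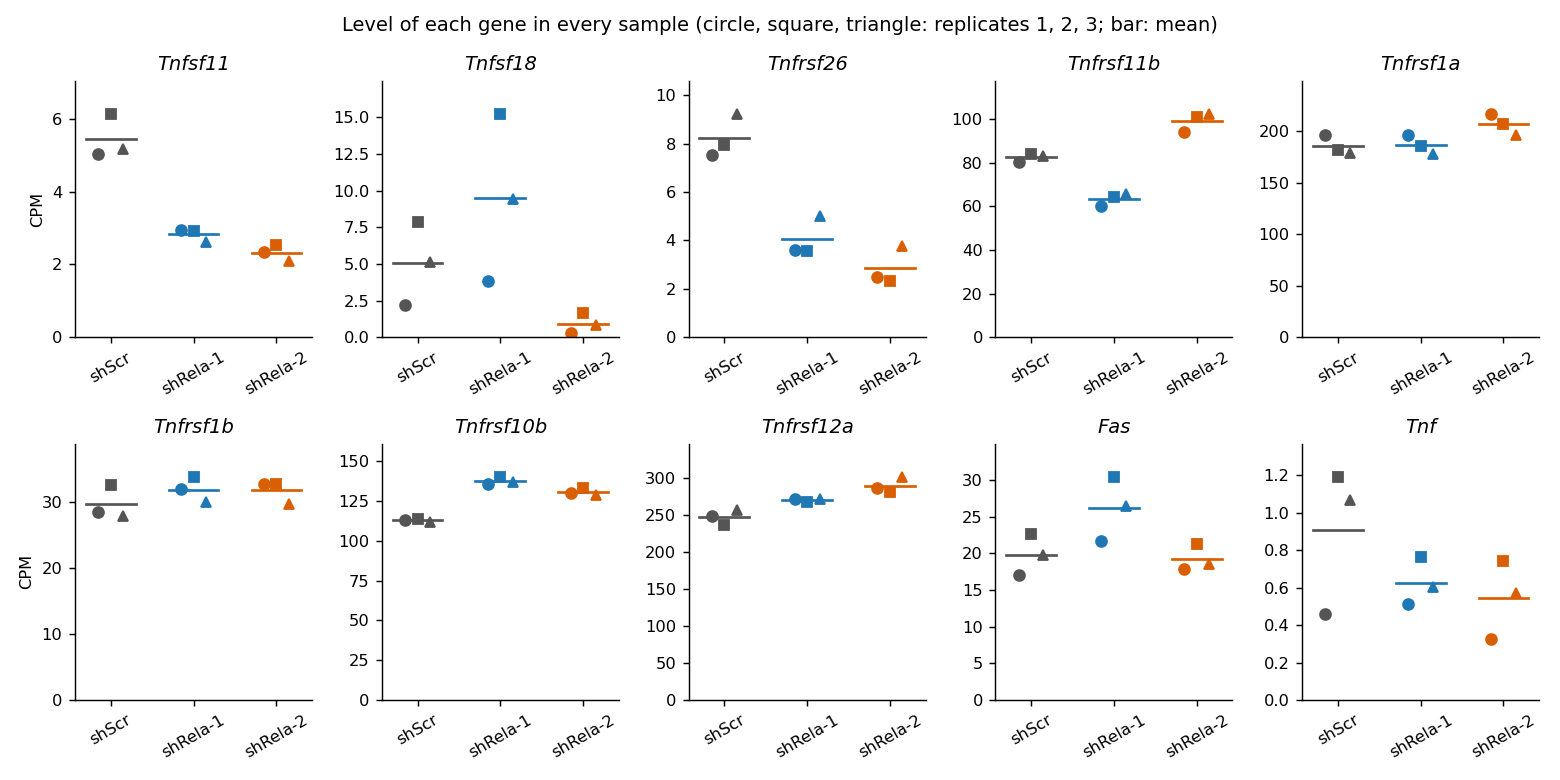
Levels in CPM (vertical axes, linear from 0) of the 10 genes in the 9 samples by group, with circle, square and triangle for replicates 1, 2 and 3 and a bar at the mean of 3. Tnfsf11 and Tnfrsf26 are lower in all 6 knockdown samples than in all shScr samples, Tnfsf18 is near 0 with shRela-2, and replicate 1 is the lowest and replicate 2 the highest in every group for Tnfsf18, Fas and Tnf.

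Certain 7-base sequences in 3' UTRs were more frequent among the genes that fell with each hairpin, and the sites of these in the members are shown for that reason. Over 13888 tested genes with an annotated 3' UTR, all 7-mers found in at least 100 of these genes (16002 in number) were ranked by how much lower the genes holding them stood, with UTR length taken out by a straight line. AGGTGTA ranked first for shRela-1 and GAAGCTA first for shRela-2. AGGTGTA was in 8.58% of the 3' UTRs, and 35.9% of the genes holding it fell with shRela-1, against 11.0% of the others. GAAGCTA was in 10.1%, and 36.9% of the genes holding it fell with shRela-2, against 13.9% of the others. The 7-mers were found on the same fold changes, so these shares are a description. The labels do not give the hairpin sequences, and the part of these 7-mers in any change was not tested.

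Among the 10 genes, the longest annotated 3' UTR held AGGTGTA in Tnfsf11 and Tnfrsf11b, and GAAGCTA in Tnfsf11, Tnfsf18, Tnfrsf26 and Fas. The 3' UTRs of Tnfrsf1a, Tnfrsf1b, Tnfrsf10b, Tnfrsf12a and Tnf held neither. The sites are printed 5′ to 3′ on the strand of the gene, in mm10 coordinates of GENCODE M21 models, with the 7-mer in capitals and the 10 bases on either side of it.
Tnfsf11, AGGTGTA, chr14:78278054-78278080, minus strand: gttatatttcAGGTGTAatgttttctg
Tnfrsf11b, AGGTGTA, chr15:54251774-54251800, minus strand: gtataaaaccAGGTGTAtacccagaaa
Tnfsf11, GAAGCTA, chr14:78277718-78277744, minus strand: ttcaaatttaGAAGCTAattgacttta
Tnfsf18, GAAGCTA, chr1:161504870-161504896, plus strand: tgtccagaatGAAGCTAcaagactttt
Tnfrsf26, GAAGCTA, chr7:143609321-143609347, minus strand: gaatttctcaGAAGCTAtgtctacata
Fas, GAAGCTA, chr19:34327036-34327062, plus strand: gacaatccagGAAGCTAaaaaatttgc

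The Tnfsf11 sites begin at bases 506 and 842 of a 3' UTR of 1131 bases. Tnfsf11 held the first-ranked 7-mer of both hairpins and was lower with both, and Tnfsf18 and Tnfrsf26 held only that of shRela-2. Tnfsf18 was lower with shRela-2 and not with shRela-1, whereas Tnfrsf26 was lower with both hairpins. Tnfrsf11b held only the 7-mer of shRela-1 and fell only with it. Fas held the 7-mer of shRela-2, and its difference from shScr with that hairpin was -0.04 ± 0.13 (log2 fold change ± SE, here and below). Tnfsf11, Tnfsf18 and Tnfrsf26 were picked for their falls, and the 7-mers were ranked on fold changes that include those of all these genes. Sites and changes are therefore set side by side as a description, with no test.

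The wider set of TNF family and receptor-proximal genes described below was read the same way, leaving out the genes picked for their falls. These genes were among those on which the 7-mers were ranked, so lower values of the holders are in part built in. The counts are a description. Of 9 genes that held AGGTGTA, 6 fell and 0 rose with shRela-1, with a median of -0.38. Of 53 that lacked it, 7 fell and 6 rose, with a median of -0.06. With shRela-2, 1 of the same 9 fell and 2 rose (median 0.09), and 7 fell and 9 rose among the 53 (median 0.01). Of 6 genes that held GAAGCTA, 2 fell and 2 rose with shRela-2 (median -0.04), and 6 fell and 9 rose among 56 that lacked it (median 0.07). With shRela-1, 1 of these 6 fell and 2 rose (median 0.06), and 12 fell and 4 rose among the 56 (median -0.1). The plot of fold changes by 7-mer names the genes.

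**Figure D2:**
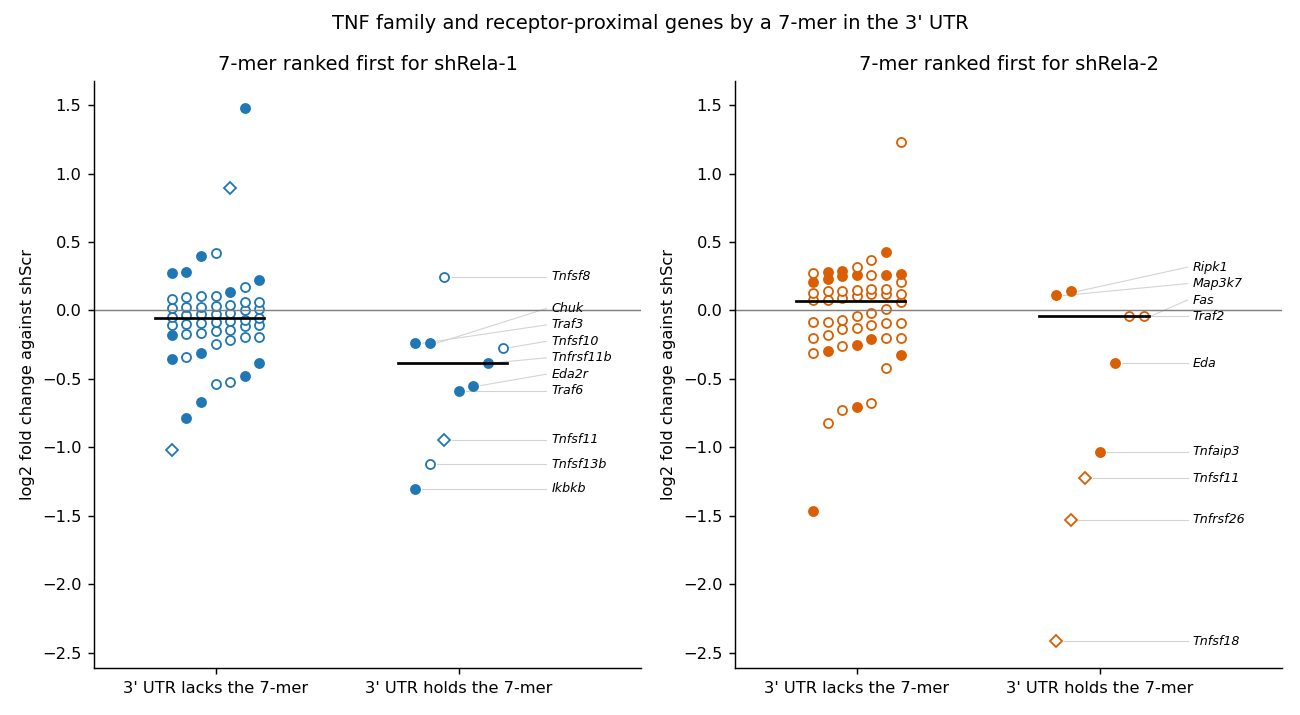
Log2 fold change against shScr (vertical axis) of TNF family and receptor-proximal genes whose 3' UTR lacks or holds the 7-mer ranked first for shRela-1 (left) or shRela-2 (right). Filled circles passed the test, open circles did not, and diamonds are genes picked for their falls. Black bars are medians without them (-0.38 against -0.06 on the left, -0.04 against 0.07 on the right). The 7-mers were ranked on fold changes that include these.

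RefSeq promoters (GRCm38.p6, from 250 bases before to 50 after the start) were found for 7 of the 10 members, Tnfsf11, Tnfsf18, Tnfrsf1a, Tnfrsf1b, Tnfrsf12a, Fas and Tnf. None of these windows held the kappaB consensus on either strand, a motif that 4.51% of all 32851 promoters of this length held. The AP-1 motif TGANTCA, held by 7.81% of them, was matched in the window of Fas. A missing match says only that these letters were not in this window.

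The RANKL and osteoprotegerin genes moved apart from each other with shRela-2. Tnfsf11 (ENSMUSG00000022015.8, chromosome 14, 78277445 to 78308043, minus strand, mm10) encodes RANKL, the cytokine that drives osteoclast formation. It stood at 5.03, 6.12 and 5.18 CPM in shScr replicates 1 to 3, at 2.96, 2.92 and 2.61 CPM with shRela-1, and at 2.35, 2.53 and 2.10 CPM with shRela-2. All 6 knockdown samples lay below all controls, and all shRela-2 samples lay below all shRela-1 samples. The group means were 52.0 ± 3.55% and 42.8 ± 3.93% of the shScr mean. These falls are what the gene was picked for.

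Tnfrsf11b (ENSMUSG00000063727.3, chromosome 15, 54250619 to 54278484, minus strand) encodes osteoprotegerin, which binds RANKL and keeps it from its receptor. It stood at 80.2, 84.1 and 83.0 CPM in shScr, at 60.1, 64.2 and 65.5 CPM with shRela-1, and at 94.0, 101 and 102 CPM with shRela-2. The 3 groups were fully apart, with shRela-1 lowest and shRela-2 highest. It fell with shRela-1 (-0.38 ± 0.045, 95% interval -0.48 to -0.28, adjusted p = 0.00017 by the quasi-likelihood test of edgeR with Benjamini-Hochberg adjustment, as for all below) and rose with shRela-2 (0.27 ± 0.045, 0.17 to 0.37, adjusted p = 0.00129). The hairpins differed by 0.65 ± 0.045 (0.55 to 0.75, adjusted p = 1.58e-06), and both hairpin changes kept their direction and call when any 1 of the 9 libraries was left out.

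Per length of exon, there were 8.32 ± 0.745 Tnfsf11 transcripts per 100 of Tnfrsf11b in shScr, 5.65 ± 0.602 with shRela-1 and 2.96 ± 0.33 with shRela-2. The ratio rests on the fall that Tnfsf11 was picked for, and has no test. Tnfrsf11a, which encodes RANK, the signalling receptor of RANKL, was named here after its values were seen. It stood at 9.57 ± 0.203, 7.47 ± 0.979 and 8.32 ± 0.851 CPM in shScr, shRela-1 and shRela-2. It fell with shRela-1 (-0.36 ± 0.11, adjusted p = 0.0357), and with shRela-2 its value of -0.20 ± 0.11 did not pass (adjusted p = 0.194) except under the replicate block (0.0484). The call with shRela-1 was lost without shScr replicate 1, 2 or 3 (adjusted p = 0.0849, 0.0776 and 0.0782) or shRela-1 replicate 1 or 2 (0.0781 and 0.117).

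Over the 9 samples, the genes whose profile was most like that of Tnfsf11 were Serpina3g, Dnajc19, Ncbp1, Yes1 and Amot. Likeness was the root mean square difference between log2 CPM deviations from the shScr mean, among the 11714 genes whose log2 CPM averaged 1 or more. The differences were 0.126 for Serpina3g, 0.183 for Dnajc19, 0.184 for Ncbp1, 0.194 for Yes1 and 0.226 for Amot.

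Tnfsf18 and Tnfrsf26, the other genes picked for their falls, behaved differently from each other. Tnfsf18 (ENSMUSG00000066755.2, chromosome 1, 161494655 to 161505290, plus strand) encodes GITRL, a ligand that costimulates T cells. It stood at 2.17, 7.89 and 5.15 CPM in shScr replicates 1 to 3, at 3.85, 15.2 and 9.40 CPM with shRela-1, and at 0.309, 1.63 and 0.872 CPM with shRela-2. The shRela-2 samples, with 16, 101 and 49 counts, all lay below the other 6, and the shRela-1 and shScr samples overlapped.

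The spread of Tnfsf18 was mostly shared by samples of the same number: within a group the highest sample was 3.63 to 5.26 times the lowest. Between samples of the same number, shRela-1 was 1.77, 1.93 and 1.83 times shScr, and shRela-2 was 0.142, 0.206 and 0.169 times shScr. So the pairs pointed up with shRela-1 in 3 of 3 and down with shRela-2 in 3 of 3. The fitted differences from shScr were 0.89 ± 0.55 and -2.42 ± 0.65. The gene of its receptor, Tnfrsf18, stood at 2.64 ± 0.615, 2.74 ± 0.334 and 2.87 ± 0.529 CPM in shScr, shRela-1 and shRela-2, and shares 27.2% of its exon bases with Gm16008 on the opposite strand.

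Tnfrsf26 (ENSMUSG00000045362.8, chromosome 7, 143607659 to 143628722, minus strand) lies in a cluster with Tnfrsf22 and Tnfrsf23, receptor genes whose products bind TRAIL without a death domain. It stood at 7.52, 7.95 and 9.20 CPM in shScr, at 3.59, 3.57 and 5.0 CPM with shRela-1, and at 2.49, 2.32 and 3.76 CPM with shRela-2. Every knockdown sample lay below every control, while the hairpin groups overlapped. Its differences from shScr were -1.02 ± 0.19 and -1.53 ± 0.20, the falls for which it was picked.

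The neighbours of Tnfrsf26 were close to their control levels. Tnfrsf22 (143634806 to 143649661 on the same strand) had -0.11 ± 0.073 with shRela-1 and -0.13 ± 0.074 with shRela-2 (adjusted p = 0.306 and 0.239). Tnfrsf23 (143665809 to 143685872) had -0.03 ± 0.080 and -0.09 ± 0.080 (adjusted p = 0.861 and 0.433, and 0.0253 for shRela-2 with the replicate block). No 50-base stretch of the longest Tnfrsf26 transcript occurred unchanged in a transcript of another gene. Sharing by shorter reads, by reads with mismatches or in exons outside that transcript was not tested. Exons of Tnfrsf26 overlap E230032D23Rik on the opposite strand over 3.33% of their bases, and the library kit does not mark strand.

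Tnf itself (chromosome 17, 35199381 to 35202007, minus strand), the founding cytokine of the family, was scarce. Its 9 libraries held between 17 and 80 counts. It stood at 0.459, 1.19 and 1.07 CPM in shScr, at 0.515, 0.764 and 0.603 CPM with shRela-1, and at 0.328, 0.740 and 0.570 CPM with shRela-2, and all groups overlapped. The differences from shScr were -0.54 ± 0.37 (95% interval -1.37 to 0.29, adjusted p = 0.339) and -0.73 ± 0.38 (-1.57 to 0.12, adjusted p = 0.184). With the replicate block the value for shRela-2 passed (-0.72, adjusted p = 0.0352), and it also passed without shScr replicate 1 (-1.03, adjusted p = 0.0397). At this depth the intervals cover both no change and a fall of more than 2-fold.

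Macrophage genes were detected in every sample. The 12 markers of macrophages and blood cells, of which 6 passed the filter on low counts, summed to 77.7, 118 and 88.7 CPM in shScr replicates 1 to 3, to 83.2, 119 and 95.6 CPM with shRela-1, and to 62.6, 95.9 and 72.4 CPM with shRela-2. The macrophage genes Ptprc, Cd68, Csf1r, Itgam, Cd14 and Adgre1 made up nearly all of it, and the lymphocyte genes Cd3e, Cd8a and Ms4a1 had at most 3 counts in any sample. Replicate 1 was the lowest and replicate 2 the highest of its group in this sum, as in Tnf, Tnfsf18 and Fas. Between samples of the same number, the sum with shRela-2 was 0.806, 0.815 and 0.817 times that of shScr, and with shRela-1 1.07, 1.01 and 1.08 times. The sum was thus lower with shRela-2 in 3 of 3 pairs. So were Tnf (0.715, 0.624 and 0.535 times shScr) and Tnfsf18 (0.142, 0.206 and 0.169), while Fas stood at 1.06, 0.94 and 0.94 times shScr. Cd68, Csf1r, Itgam, Cd14 and Adgre1 had fewer counts with shRela-2 in each pair. Ptprc did not, with 292, 434 and 320 counts against 239, 555 and 353 in shScr. These counts are raw. The replicate 3 libraries held 62530781 counts in shScr and 55705353 with shRela-2, so Ptprc was not lower there once depth is taken in. The part of these cells in the values of Tnf, Tnfsf18 and Fas was not tested, and in bulk RNA fewer cells of a type and less RNA per cell cannot be told apart.

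The receptors of TNF changed little. Tnfrsf1a (chromosome 6, 125349362 to 125362484, plus strand) stood at 196, 182 and 179 CPM in shScr, 196, 185 and 178 CPM with shRela-1, and 216, 207 and 196 CPM with shRela-2. The shRela-1 and control samples overlapped (0.01 ± 0.053, 95% interval -0.11 to 0.12, adjusted p = 0.959). All shRela-2 samples lay above all controls, the lowest only just. Their difference of 0.15 ± 0.053 just missed the threshold (adjusted p = 0.0506) and passed with the replicate block (adjusted p = 0.000113). It also passed with DESeq2 (0.0267) and limma voom (0.0423). The same held without shScr replicate 1 (0.0276), shRela-1 replicate 1 (0.0469) or shRela-2 replicate 3 (0.0342). Over all single libraries left out, the adjusted p reached up to 0.168. The hairpins differed by 0.15 ± 0.053 (adjusted p = 0.0475), a call lost without shScr replicate 2 or 3 (adjusted p = 0.0668 and 0.059), shRela-1 replicate 2 or 3 (0.125 and 0.179) or shRela-2 replicate 1 or 2 (0.159 and 0.108). It was also lost with DESeq2 size factors (0.0507), with no filter on low counts (0.0568) and when only the hairpin groups were fitted (0.0623).

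Tnfrsf1b (chromosome 4, 145213463 to 145246870, minus strand) stood at 28.4, 32.5 and 27.8 CPM in shScr, 31.9, 33.7 and 29.9 CPM with shRela-1, and 32.7, 32.7 and 29.7 CPM with shRela-2. The groups overlapped. The differences were 0.11 ± 0.072 (95% interval -0.05 to 0.27, adjusted p = 0.331) and 0.10 ± 0.072 (-0.06 to 0.26, adjusted p = 0.332), so a change of more than 0.27 on the log2 scale lies outside both intervals.

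The other receptors, of TRAIL, TWEAK and Fas ligand, rose with 1 or both hairpins. Tnfrsf10b (chromosome 14, 69767472 to 69784411, plus strand), the TRAIL receptor that can trigger apoptosis, stood at 113, 114 and 112 CPM in shScr, 136, 140 and 137 CPM with shRela-1, and 130, 133 and 129 CPM with shRela-2. Both knockdown groups lay fully above the controls. It rose by 0.28 ± 0.033 with shRela-1 (adjusted p = 0.000155) and by 0.21 ± 0.033 with shRela-2 (adjusted p = 0.000883). The hairpins differed by -0.07 ± 0.033 (adjusted p = 0.1, or 0.0431 with the replicate block). Of the 50-base stretches of its longest transcript, 9.74% also occur in a transcript of Gm15574 or another gene, so a part of its reads may be shared.

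Tnfrsf12a (chromosome 17, 23675445 to 23677468, minus strand), the TWEAK receptor, stood at 248, 237 and 256 CPM in shScr, 272, 268 and 272 CPM with shRela-1, and 287, 281 and 301 CPM with shRela-2. The 3 groups were fully apart and in this order. It rose by 0.23 ± 0.041 with shRela-2 (adjusted p = 0.00187) and by 0.13 ± 0.041 with shRela-1 (adjusted p = 0.0393). The call with shRela-1 was lost without shScr replicate 1 or 2 (adjusted p = 0.0813 and 0.138), shRela-1 replicate 1, 2 or 3 (0.0892, 0.0763 and 0.0904) or shRela-2 replicate 1 (0.0508), and when only those 2 groups were fitted (0.0545). The hairpins differed by 0.10 ± 0.041 (adjusted p = 0.085, or 0.00528 with the replicate block).

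Fas (chromosome 19, 34290666 to 34327772, plus strand) stood at 17, 22.7 and 19.8 CPM in shScr, 21.7, 30.4 and 26.5 CPM with shRela-1, and 17.9, 21.3 and 18.6 CPM with shRela-2. Between samples of the same number, shRela-1 was 1.28, 1.34 and 1.34 times shScr, although the groups overlapped. It rose with shRela-1 (0.40 ± 0.13, adjusted p = 0.0492, or 7.25e-06 with the replicate block) and had -0.04 ± 0.13 with shRela-2 (adjusted p = 0.858). Without the block, the call with shRela-1 was lost without shScr replicate 1 or 3 (adjusted p = 0.143 and 0.121), shRela-1 replicate 2 or 3 (0.17 and 0.116) or any shRela-2 replicate (0.0526, 0.0529 and 0.0687), with limma voom (0.055) and when only those 2 groups were fitted (0.0704). The hairpins differed by -0.44 ± 0.13 (adjusted p = 0.0216), a call lost without shRela-1 replicate 2 or 3 (0.0834 and 0.0577) or shRela-2 replicate 1 or 3 (0.0685 and 0.0682).

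**Figure D3:**
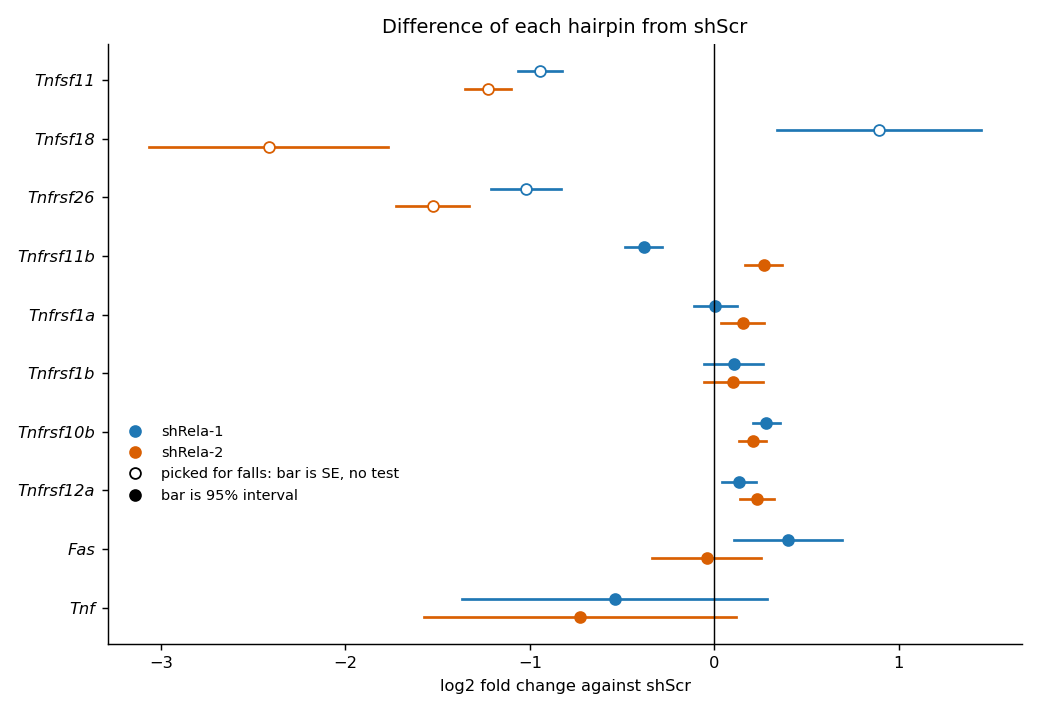
Log2 fold change against shScr (horizontal axis) of the 10 genes with shRela-1 (blue) and shRela-2 (orange), with bars for the 95% interval, or for the SE at open points, the genes picked for their falls. Tnfrsf11b lies below 0 with shRela-1 and above 0 with shRela-2, and Tnfrsf10b and Tnfrsf12a lie above 0 with both.

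Of the 7 members not picked for falls, 3 rose (Tnfrsf10b, Tnfrsf12a and Fas) and 1 fell (Tnfrsf11b) with shRela-1, where 24.7% of all genes tested were called (12.3% higher and 12.4% lower). With shRela-2, 3 rose (Tnfrsf11b, Tnfrsf10b and Tnfrsf12a) and the other 4 did not pass, where 30.9% of all genes were called (15.4% in each direction). Between hairpins 3 differed (Tnfrsf11b, Tnfrsf1a and Fas), where 39.9% of all genes were called. The 2 that were higher with shRela-2 than with shRela-1 compare with 20.0% of all genes, and the 1 that was lower with 19.9%. The 7 genes were chosen with results of these data known, so nothing about the family is read from these counts. Medians of the 7 were 0.11 with shRela-1 and 0.15 with shRela-2, against 0.00 over all genes in both.

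The wider family was then counted, 18 ligand and 28 receptor genes, of which 12 and 23 were tested. The 6 ligand genes left out, Ltb, Tnfsf4, Cd40lg, Fasl, Cd70 and Tnfsf14, had at most 40 counts over all samples together, and the 5 receptor genes left out had at most 34. Fasl, the ligand of Fas, had between 0 and 2 counts in any sample. Without the genes picked for falls, 4 of 32 rose and 5 fell with shRela-1 (28.1% called), 5 rose and 3 fell with shRela-2 (25.0% called), and 8 were higher and 3 lower with shRela-2 than with shRela-1 (34.4% called). With the replicate block, 8 rose and 6 fell with shRela-2, where the block called 6830 of all 15369 genes (3414 higher and 3416 lower). The shares called over all genes without the block were 24.7%, 30.9% and 39.9%. Without shScr replicate 1 or shRela-1 replicate 2, 5 genes in place of 9 were called with shRela-1.

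Of the 10 ligand genes in that count, 3 fell with shRela-2, where 15.4% of all genes fell. Tnfsf15, which encodes TL1A, a costimulator of T cells, went from 9.65 ± 1.05 CPM in shScr to 5.90 ± 1.19 CPM with shRela-2 (-0.71 ± 0.18, adjusted p = 0.0112), and stood at 9.80 ± 2.06 CPM with shRela-1 (0.02 ± 0.17, adjusted p = 0.949). Eda, the ectodysplasin gene of skin appendage development, fell with shRela-2 (-0.39 ± 0.12, adjusted p = 0.0315), a call lost without shScr replicate 1 or 3 (adjusted p = 0.088 and 0.121) or shRela-2 replicate 2 or 3 (0.0665 and 0.103). Lta, which encodes lymphotoxin alpha and lies beside Tnf, fell from 0.167 ± 0.0109 to 0.0591 ± 0.0213 CPM, a value of 2 to 11 counts per library over the 9 samples (-1.47 ± 0.45, adjusted p = 0.0312, or 0.0577 with the replicate block). Its call was lost without any of the 6 libraries of these 2 groups (adjusted p = 0.0787, 0.0708 and 0.0656 without shScr replicates 1 to 3, and 0.052, 0.0759 and 0.0983 without shRela-2 replicates 1 to 3) and with no filter on low counts (0.0821).

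With shRela-1 the ligand gene that passed was Tnfsf13, the plasma cell survival factor APRIL, which rose from 0.0940 ± 0.0279 to 0.266 ± 0.104 CPM on 4 to 23 counts per library (1.48 ± 0.44, adjusted p = 0.0334). The call was lost without shScr replicate 1, 2 or 3 (adjusted p = 0.0714, 0.0576 and 0.118) or shRela-1 replicate 1 or 2 (0.128 and 0.0764), with no filter on low counts (0.0581) and when only those 2 groups were fitted (0.059). Its value with shRela-2 was 1.23 ± 0.46 (adjusted p = 0.0658).

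Among the 22 receptor genes, 3 rose and 5 fell with shRela-1, where 12.3% of all genes rose and 12.4% fell. Besides Tnfrsf11b and Tnfrsf11a, the genes that fell were Cd40, Eda2r and Tnfrsf21, the last named after its values were seen. Cd40, the costimulatory receptor of antigen-presenting cells, went from 9.97 ± 1.49 to 5.77 ± 0.901 CPM (-0.79 ± 0.16, adjusted p = 0.0057) and stood at 12.5 ± 2.34 CPM with shRela-2 (0.32 ± 0.16, adjusted p = 0.166, under the block 0.00276; without shRela-2 replicate 2, 0.47 and 0.0442). The hairpins differed in Cd40 by 1.11 ± 0.16 (adjusted p = 0.000338). Eda2r, a p53-induced receptor for an ectodysplasin isoform, went from 73.5 ± 4.70 to 50.3 ± 6.24 CPM (-0.55 ± 0.084, adjusted p = 0.000913). With shRela-2 Eda2r stood at 68.4 ± 4.08 CPM (-0.11 ± 0.084, adjusted p = 0.387, or 0.0446 with the replicate block). Tnfrsf21, the death receptor DR6, went from 19.6 ± 0.737 to 15.8 ± 0.961 CPM with shRela-1 (-0.31 ± 0.062, adjusted p = 0.00417).

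With shRela-2, 5 of the 22 receptor genes rose and the others did not pass, where 15.4% of all genes rose. With the replicate block, 8 of them rose and 3 fell, where 3414 of all 15369 genes rose and 3416 fell. Relt, a receptor named for its expression in lymphoid tissue, rose from 19.5 ± 1.28 to 26.2 ± 1.18 CPM (0.43 ± 0.063, adjusted p = 0.000568), and Ltbr, the lymphotoxin beta receptor, from 103 ± 1.82 to 126 ± 5.73 CPM (0.29 ± 0.043, adjusted p = 0.000628). Tnfrsf14, the receptor HVEM, was higher with shRela-2 than with shRela-1 (2.77 ± 0.102 against 1.88 ± 0.113 CPM, 0.56 ± 0.14, adjusted p = 0.00802). Relt and Ltbr were near their control level with shRela-1, at 0.04 ± 0.063 and 0.06 ± 0.043 (adjusted p = 0.714 and 0.338). Tnfrsf14 stood at 2.14 ± 0.322 CPM in shScr. Against shScr it had -0.19 ± 0.14 with shRela-1 (adjusted p = 0.368) and 0.37 ± 0.14 with shRela-2 (adjusted p = 0.0666). The latter passed with the replicate block (0.0403) and without shScr replicate 3 (0.0354).

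Of 30 genes for adaptors, kinases and regulators just downstream of the receptors, all tested, 2 rose and 8 fell with shRela-1 (33.3% called). With shRela-2, 6 rose and 5 fell (36.7% called). Under the replicate block 12 rose and 6 fell with shRela-2, where 3414 of all 15369 genes rose and 3416 fell. Between hairpins, 11 were higher and 2 lower with shRela-2 (43.3% called). Over all genes, 24.7%, 30.9% and 39.9% were called in these comparisons without the block, and between hairpins 20.0% were higher and 19.9% lower. Ikbkb, the kinase that marks IkB for destruction, went from 51.3 ± 1.71 to 20.8 ± 0.734 CPM with shRela-1 and stood at 48.3 ± 1.99 CPM with shRela-2. Cflar, which blocks caspase-8 at death receptors, went from 133 ± 2.60 to 83.7 ± 0.404 CPM with shRela-1 and stood at 134 ± 4.14 CPM with shRela-2. Traf6, the ubiquitin ligase that serves RANK and CD40, fell from 23.2 ± 1.11 to 15.4 ± 0.435 CPM with shRela-1 (-0.59 ± 0.071, adjusted p = 0.000193) and rose to 27.8 ± 2.41 CPM with shRela-2 (0.26 ± 0.070, adjusted p = 0.0157), the latter call being lost without shScr replicate 2 or 3 (adjusted p = 0.0614 and 0.063) or shRela-2 replicate 1 or 2 (0.0574 and 0.0665).

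Tnfaip3, which encodes A20, the brake on TNF receptor signalling, stood at 14.7 ± 0.855 CPM in shScr and 15.6 ± 0.583 CPM with shRela-1, and fell to 7.20 ± 0.784 CPM with shRela-2 (-1.03 ± 0.088, adjusted p = 1.76e-05). Its partner Tnip1 fell with shRela-2 (-0.32 ± 0.081, adjusted p = 0.0111). With shRela-1 Tnip1 had -0.16 ± 0.080 (adjusted p = 0.172, or 0.0313 with the replicate block). The hairpins differed in Tnip1 by -0.16 ± 0.081 (adjusted p = 0.144, or 0.0308 with the block). Chuk, the IKK-alpha kinase, fell with both hairpins (-0.24 ± 0.064 with shRela-1 and -0.30 ± 0.065 with shRela-2, adjusted p = 0.021 and 0.00516). The call of Chuk with shRela-1 was lost without shScr replicate 1 or 3 (adjusted p = 0.0582 and 0.0556) or shRela-1 replicate 2 (0.0678). Adam17, the protease that cuts TNF and its receptors from the cell surface, rose with both hairpins, from 59.4 ± 2.00 to 69.3 ± 1.54 and 70.9 ± 0.400 CPM (0.22 ± 0.035 and 0.26 ± 0.035, adjusted p = 0.001 and 0.000333). Map3k7, the kinase TAK1, rose with both as well (0.28 ± 0.033 and 0.11 ± 0.033, adjusted p = 0.00019 and 0.0296), the second call being lost without any shScr replicate (adjusted p = 0.066, 0.0603 and 0.094) or shRela-2 replicate 2 or 3 (0.0879 and 0.0815), and with no filter on low counts (0.0523). Tab1, a partner of TAK1, rose with shRela-2 (0.28 ± 0.068, adjusted p = 0.00927). Cyld, a deubiquitinase that restrains NF-kB, fell with shRela-1 (-0.48 ± 0.12, adjusted p = 0.014, or 0.0529 without shScr replicate 2). It was higher with shRela-2 than with shRela-1 (0.73 ± 0.12, adjusted p = 0.00058). Against shScr, Cyld had 0.26 ± 0.12 with shRela-2 (adjusted p = 0.124, 6.51e-05 with the replicate block and 0.0465 without shScr replicate 2).

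**Figure D4:**
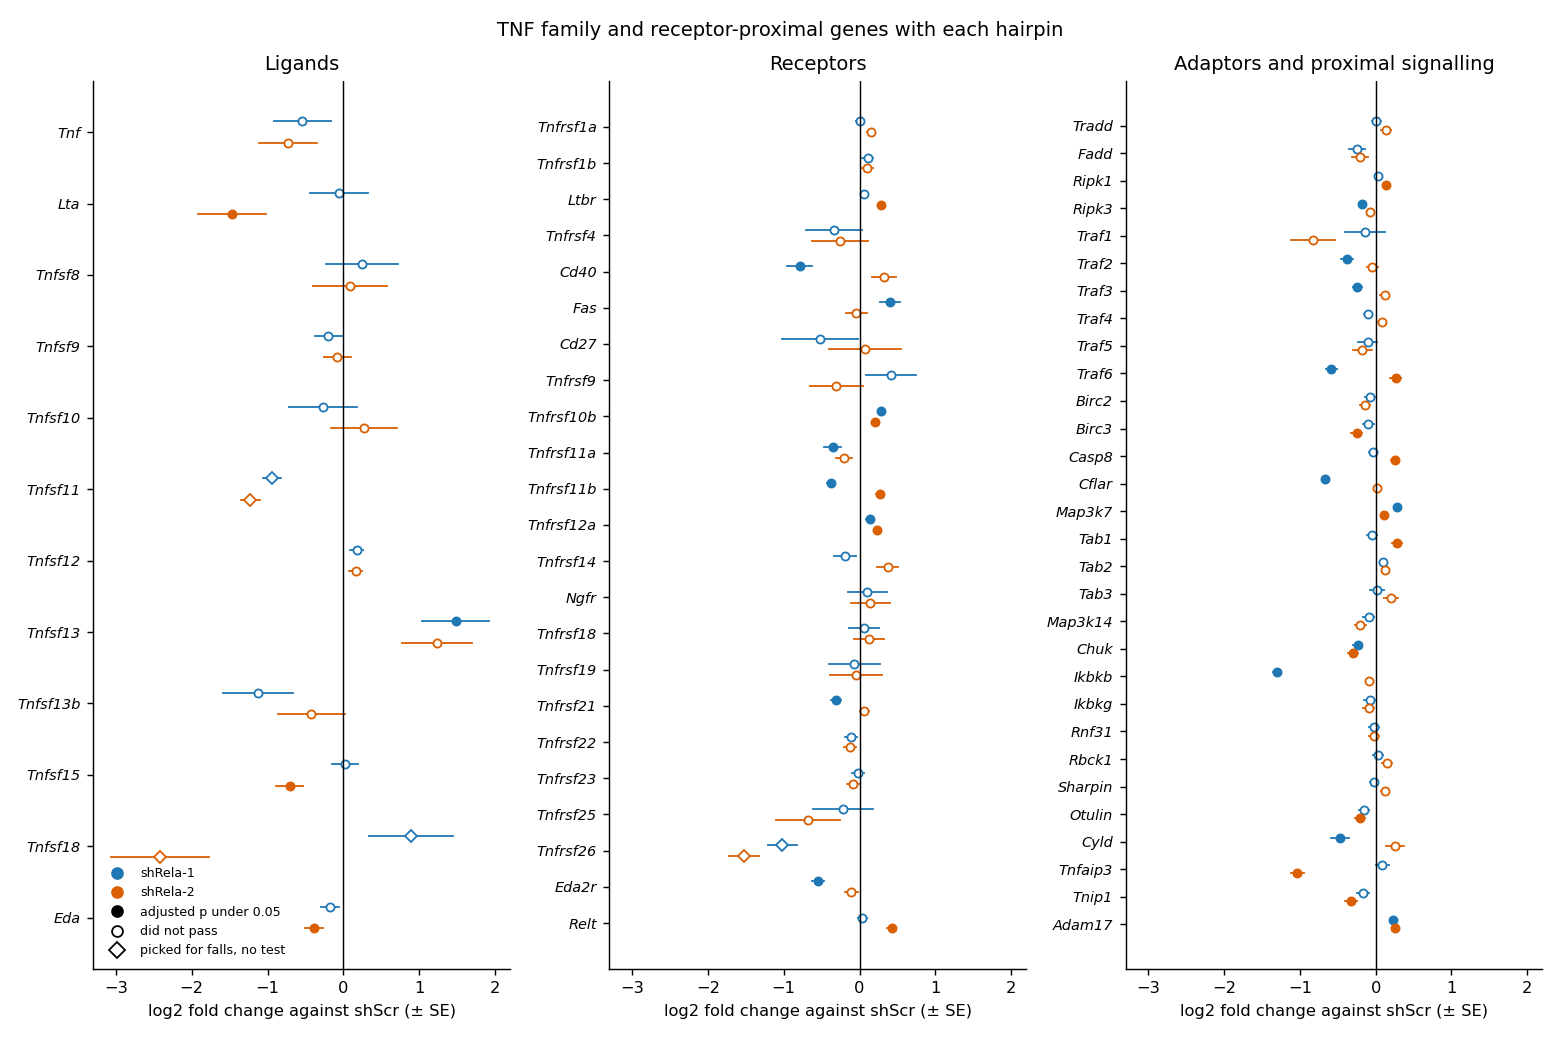
Log2 fold change against shScr with its SE (horizontal axes) for every tested ligand, receptor and receptor-proximal gene with shRela-1 (blue) and shRela-2 (orange). Filled circles passed the test at an adjusted p under 0.05, open circles did not, and diamonds are the genes picked for their falls. Traf6 and Tnfrsf11b are filled on opposite sides of 0.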

How the data were processed

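The values are raw read counts by gene symbol, as the authors deposited them, in 1 column per sample. Per the submitters' processing notes TopHat2 2.0.14, Bowtie2 2.2.6, featureCounts 1.4.6 and Subread were used on mm10, with settings that the labels do not state. Per the labels' protocols, the library kit was TruSeq RNA v2. Of the values from 1 to 10, 68.3% were even, and whether mates of a pair were counted separately is not stated, so fragments may be fewer than counts. Groups were read from the titles. Counts were filtered by filterByExpr, scaled by TMM and fitted with 1 mean per group over 9 samples by edgeR 4.0.16 (R 4.3.3, quasi-likelihood, two-sided, Benjamini-Hochberg over all 15369 genes tested, threshold 0.05), which was tested on simulated data. Alternatives were DESeq2 1.42.0, its size factors, limma 3.58.1 (voom), no filter, the compared groups alone, a replicate block, and leaving out each library. Deviations from the group means correlated at 0.189 to 0.415 in the 9 pairs of same-numbered samples and at -0.306 to 0.0459 in the other 18. The replicate block and the ratios between same-numbered samples therefore take the titles' numbers as pairing the samples. The main fit and the other alternatives do not use this pairing. Log2 CPM used a prior count of 2. Gene models are GENCODE M21 (GRCm38). Besides the 10 members, up to 3 called genes per list, comparison and direction with the largest change were named, and the 5 genes most like Tnfsf11. The members and lists were chosen with earlier results of these data known.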

Additional observations from a re-analysis of the deposited data

Results flagged for a closer look

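The response to the hairpins differed between shRela-1 and shRela-2, by the test of the difference itself, in 3 of the 7 genes not picked for falls. The difference, shRela-2 minus shRela-1 on the log2 scale, was 0.65 for Tnfrsf11b (adjusted p = 1.58e-06), with changes of opposite direction that each passed. It was -0.44 for Fas (adjusted p = 0.0216) and 0.15 for Tnfrsf1a (adjusted p = 0.0475), by edgeR with adjustment over all genes tested, and these calls are lost without the single libraries named above. The call of Tnfrsf1a is also lost with DESeq2 size factors (0.0507), with no filter on low counts (0.0568) and with only the hairpin groups fitted (0.0623). Over all genes, 39.9% differed between the hairpins, near the 42.9% of these 7, so nothing about the family is read from the count.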

How the results depend on the processing

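Without single libraries the number of genes called ran from 2745 to 3824 with shRela-1, from 3766 to 4757 with shRela-2 and from 5280 to 6152 between hairpins, and among the TNF family genes from 5 to 8, from 7 to 8 and from 8 to 11. With the replicate block 6034 genes in place of 3799 were called with shRela-1, and 14 TNF family genes in place of 8 with shRela-2. Over all genes, the block called 6830 with shRela-2 in place of 4742. The other alternatives left these counts within 1.5 times. Of 315 refitted values of the 7 members that carry a test, 268 kept their direction and call, 29 lost the call, 10 gained it and 8 changed sign. Each of these 8 had no call and came from leaving out 1 library. Over the libraries left out, Tnfrsf1a with shRela-1 ran from -0.031 to 0.046, Fas with shRela-2 from -0.139 to 0.064, and, between hairpins, Tnfrsf1b from -0.053 to 0.04 and Tnf from -0.476 to 0.064. Of the other genes named, values without a call changed sign with shRela-1 for Lta (-0.091 to 0.03), Relt (-0.015 to 0.075), Tab1 (-0.088 to 0.009) and Tnfsf15 (-0.154 to 0.151, and -0.003 by limma voom), with shRela-2 for Cflar (-0.015 to 0.026), and between hairpins for Tnfsf13 (-0.503 to 0.058). Tnfsf18 ran from 0.38 to 1.36 with shRela-1 and from -3.09 to -1.95 with shRela-2. The causes were not tested. The block changed no call of a member beyond those given above. Depth limits Tnf, Lta and Tnfsf13, which had fewer than 100 counts in every library.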
